A study of Mus musculus with 20 samples.

Results

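The unfolded protein and stress response genes Hspa5, Hsp90b1, Calr, Dnajb9, Herpud1, Xbp1, Ddit3, Atf4, Atf3 and Trib3 were followed in the subcutaneous inguinal white fat (iWAT) of 20 female mice, labelled C57BL/6. They were chosen by name, as known members of the response, and are 10 of 36611 genes with a level in these RNA-seq libraries. Their levels were read in TPM, a unit of level that takes transcript length and library size into account, summed over all transcripts of each gene. Ad-Tmem120a−/− mice, named knockout here, carry Tmem120a with exons 2 and 3 floxed and removed by an Adiponectin-Cre allele, which is active in mature adipocytes only, so other cells of the depot keep the gene. The floxed line was made on C57BL/6 N Tac and the Cre line was on C57BL/6 J. Control mice, labelled wild type, were littermates with both floxed alleles and no Cre; a group of Cre carriers without floxed alleles was not analysed here. Each genotype was fed either LFD, a low-fat diet with fat at 10.5%, or HFD, a high-fat diet with fat at 58%, for 15 weeks until 6 months of age, in group cages, with 5 mice in each of the 4 groups.

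The unfolded protein response is set off when unfolded proteins gather in the endoplasmic reticulum (ER), the compartment in which secreted and membrane proteins fold. The sensor IRE1 cuts the Xbp1 mRNA and so makes the active factor XBP1, the sensor ATF6 is cleaved into a factor that drives ER chaperone genes, and the kinase PERK phosphorylates eIF2α, which slows translation while favouring that of Atf4. PERK shares this last step with other kinases that answer amino acid shortage, haem shortage or viral RNA, and their common output is named the integrated stress response. Adipocytes secrete large amounts of adiponectin, leptin and matrix proteins, and ER stress markers in fat have long been studied in obesity.

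All 20 libraries held between 54605101 and 92387737 estimated counts. Tmem120a itself was at 57.9 to 132 TPM in control LFD mice and 21.5 to 74.0 TPM in knockout LFD mice, and at 83.3 to 196 TPM against 29.5 to 89.7 TPM on HFD, so the genotypes overlapped in some mice on either diet. Over both diets it was lower in knockout iWAT by 1.64 on the log2 scale (edgeR quasi-likelihood test, adjusted p = 0.00452). It was not called on HFD (−1.67, adjusted p = 0.173) or on LFD (−1.61, adjusted p = 0.929) alone, nor over both diets with limma (adjusted p = 0.16) or with transcript length offsets (adjusted p = 0.134). The tissue label was borne out by the 10 white adipocyte markers, whose summed level was 15413 to 32262 TPM and none of which was under 0.5 TPM in every mouse. Muscle fibre markers varied from 7.67 to 3567 summed TPM between mice, with 1000 or more in control LFD mouse 5, knockout LFD mouse 9 and knockout HFD mice 17 and 19. Apart from the groups, the first component of the differences between mice held 26.1% of the variance, and knockout LFD mouse 9 and control LFD mouse 1 lay at its far end. Results that changed without either set of libraries are given with and without them.

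On HFD, 3 of the 10 genes were higher than on LFD over both genotypes: the ER chaperones Hspa5 (BiP, which also holds the sensors inactive) and Calr (calreticulin, a lectin chaperone that binds calcium), and the stress-induced transcription factor Atf3. Their log2 fold changes were 0.30 ± 0.07, 0.45 ± 0.12 and 0.74 ± 0.25 (± SE, 10 mice against 10), with edgeR quasi-likelihood p-values, adjusted over all genes by the Benjamini-Hochberg method, of 0.0057, 0.0126 and 0.0401. None of the 10 genes was called lower, and none was called between the genotypes. A gene was called at an adjusted p under 0.1, and 25.2% of the 15574 genes tested were called in this diet comparison, 12.5% as higher on HFD and 12.7% as lower. The other 7 genes did not pass: the estimates of Dnajb9, Herpud1, Ddit3, Atf4 and Trib3 lay between 0.17 and 0.60 and those of Xbp1 and Hsp90b1 were −0.23 and −0.16. The median of the 10 log2 fold changes was 0.32, beside −0.03 over all genes tested. Without the 4 libraries high in muscle markers, Hspa5 and Calr were called and Atf3 was not (0.66 ± 0.30, adjusted p = 0.161).

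**Figure D1:**
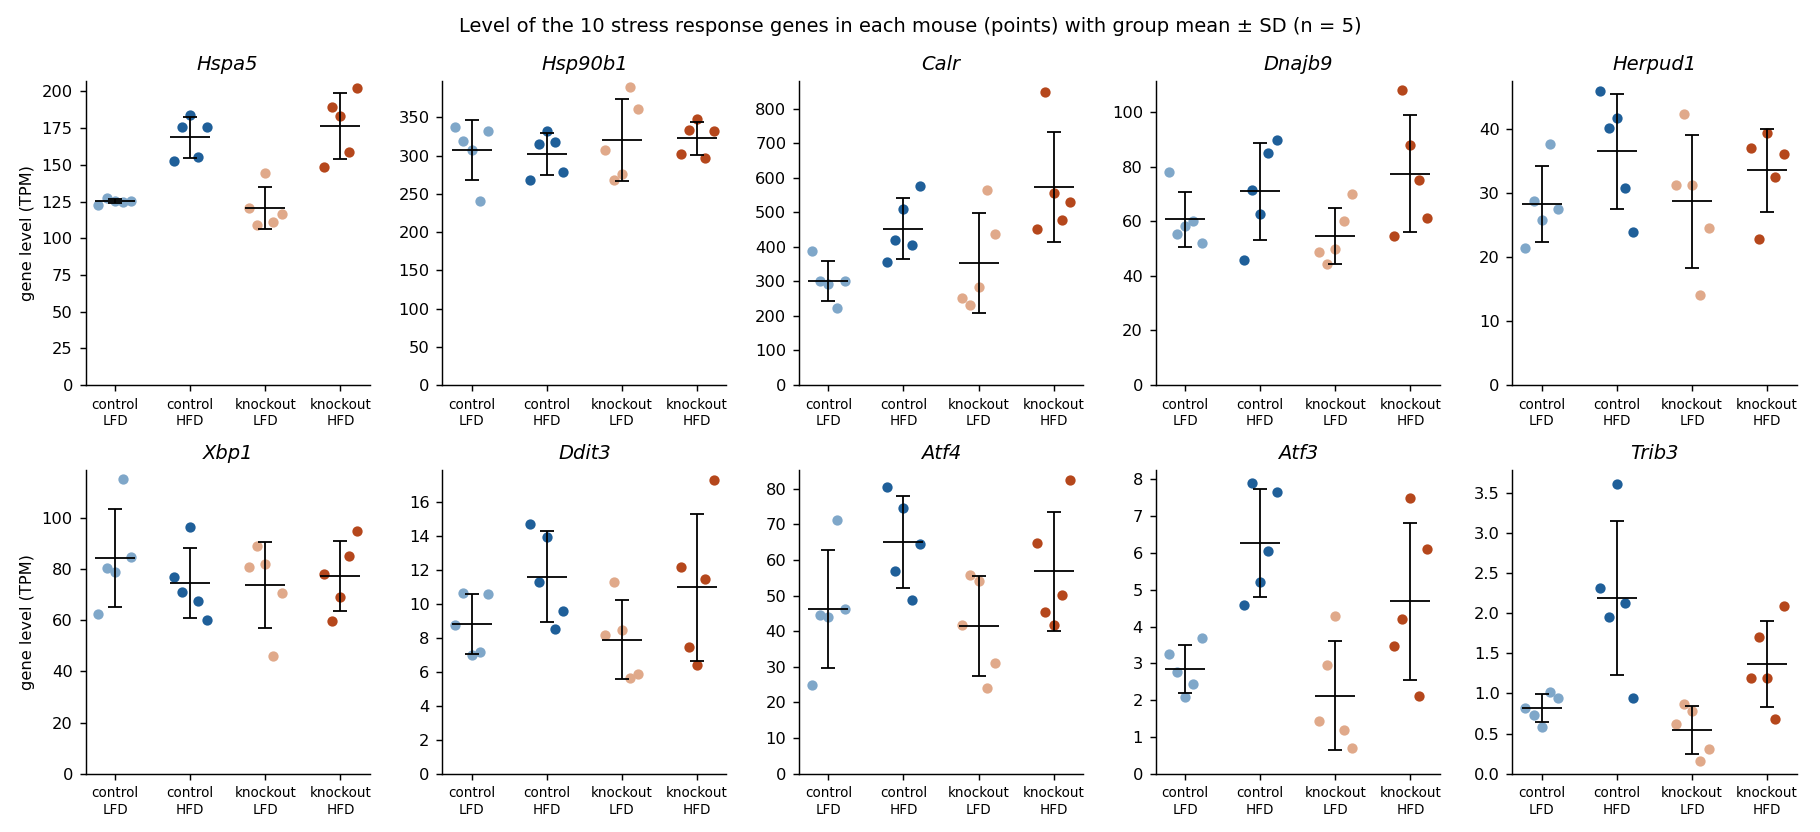
Level in TPM (vertical axes, each from 0) of the 10 genes in each mouse, by group on the horizontal axes. Points are mice and bars are the group mean ± SD (n = 5). Every HFD mouse lies above every LFD mouse for Hspa5, while the groups overlap widely for Hsp90b1 and Xbp1.

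Hspa5 (ENSMUSG00000026864, chr2:34627490-34632051 on the + strand, mm9) separated the diets in every mouse. In control LFD mice 1 to 5 it was at 123, 127, 126, 124.7 and 126 TPM, and in control HFD mice 11 to 15 at 152, 176, 184, 155 and 176 TPM. In knockout LFD mice 6 to 10 it was at 120.5, 109, 145, 111 and 117 TPM, and in knockout HFD mice 17 to 21 at 148, 189, 183, 159 and 202 TPM. Thus all 10 HFD mice lay above all 10 LFD mice, a pattern that 1.47% of all genes shared in that direction. The mean rose from 125.2 ± 1.58 to 169 ± 13.99 TPM in control and from 120.4 ± 14.2 to 176 ± 22.3 TPM in knockout iWAT (± SD, n = 5). A two-sided exact permutation test gave p = 0.00794 in each genotype, the smallest that 5 mice against 5 allow (0.106 after adjustment over the 40 such tests of the 10 genes). On counts scaled by the trimmed mean of M values (TMM), which sets aside genes that take up unequal shares of a library, the difference was smaller: 1.23-fold between the diets against 1.40-fold for the TPM means, and 8 of the 10 HFD mice lay above all LFD mice.

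Mitochondrial transcripts took a larger share of TPM on LFD, and their part in this gap between the scales was not tested. Their share was 17.3 to 28.0% in control LFD and 21.7 to 29.7% in knockout LFD mice, and 13.4 to 17.7% and 11.3 to 20.1% in control and knockout HFD mice. Tested on log2(TPM + 1) with limma, the median diet difference of all genes moved from −0.03 to 0.10, and the calls of the whole table from 1954 higher and 1977 lower to 3522 higher and 1221 lower. Fold changes and calls are therefore those of the TMM-scaled counts, and TPM values are given as levels. On TMM-scaled counts Hspa5 was called in the knockout mice (0.41 ± 0.13, adjusted p = 0.0812), where 9.4% of all genes were called (4.55% higher, 4.85% lower), and not in the control mice (0.19 ± 0.10, adjusted p = 0.328), where 9.32% were called (4.42% higher, 4.9% lower). The call in knockout mice was lost on leaving out any of knockout LFD mice 6 to 10 or knockout HFD mice 18, 19 or 21 (adjusted p 0.109 to 0.177), and held without knockout HFD mouse 17 or 20. It was also lost without the 3 knockout libraries high in muscle markers (adjusted p = 0.288). The difference between the genotypes in the diet effect was 0.21 and not called (adjusted p = 0.9999). The call over both genotypes held on leaving out any 1 of the 20 mice.

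Calr (ENSMUSG00000003814, chr8:87365749-87370833 on the − strand, mm9) was at 388, 300.3, 292, 222 and 302 TPM in control LFD mice and at 355, 419, 509, 404 and 577 TPM in control HFD mice. It was at 251, 230.2, 283, 566 and 437 TPM in knockout LFD mice and at 452, 848, 556, 477 and 528 TPM in knockout HFD mice. The diets overlapped in both genotypes, through control LFD mouse 1 and knockout LFD mouse 9, the outlying libraries on the first component, and the highest value was that of knockout HFD mouse 18. The diet estimate was 0.36 ± 0.14 in control and 0.52 ± 0.21 in knockout mice, neither called (adjusted p = 0.169 and 0.187, the latter 0.0964 without knockout LFD mouse 9), and was called over both genotypes on leaving out any 1 of the 20 mice.

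The other ER chaperones among the 10 genes were not called. Hsp90b1 (GRP94, the ER member of the HSP90 family) was at 241 to 390.2 TPM on LFD and 268 to 348 TPM on HFD, and its estimate was −0.16 ± 0.10 (adjusted p = 0.283). On log2(TPM + 1) that estimate was 0.0012, so its direction depended on the scale. On TMM-scaled counts every control HFD mouse lay below every control LFD mouse (412 to 497 against 498 to 611 CPM, counts scaled to the library size), a pattern found in 3.65% of genes, while the estimate of −0.27 ± 0.12 was not called (adjusted p = 0.235). Dnajb9 (ERdj4, an HSP40 co-chaperone of BiP) ranged from 44.4 to 78.1 TPM on LFD and from 45.8 to 108 TPM on HFD, with 4 of 10 HFD mice above all LFD mice. Herpud1 (HERP, a membrane protein of ER-associated degradation) ranged from 14.1 to 42.2 TPM on LFD and from 22.8 to 45.8 TPM on HFD. Both sets of values overlapped between diets in control and in knockout iWAT, and neither gene was called (adjusted p = 0.393 and 0.441).

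Among the transcription factors, Atf3 (ENSMUSG00000026628, chr1:192994175-193007219 on the − strand, mm9) showed the largest called difference of the 10 genes. It was at 3.26, 2.76, 2.07, 2.45 and 3.69 TPM in control LFD mice and at 4.59, 7.90, 5.20, 6.05 and 7.66 TPM in control HFD mice, without overlap. In control mice 8.32% of all genes had every HFD mouse above every LFD mouse. The log2 fold change there was 0.90 ± 0.21 (1.86-fold, adjusted p = 0.0334), called on leaving out any 1 of the 10 control mice, and the exact permutation p was 0.00794 (adjusted 0.106). In knockout mice it was at 1.45, 2.96, 4.30, 1.19 and 0.705 TPM on LFD and at 3.48, 4.20, 7.49, 2.12 and 6.12 TPM on HFD, with overlap, and the estimate of 0.58 ± 0.44 was not called (adjusted p = 0.522). For comparison, 5.01% of all genes separated the diets upward in the knockout mice. The difference between the genotypes in the diet effect was −0.33 and not called (adjusted p = 0.9999), so a diet effect particular to control mice was not shown.

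Xbp1 (the factor of the IRE1 branch, ENSMUSG00000020484, chr11:5420662-5425896 on the + strand, mm9) was at 46.0 to 115 TPM on LFD and 59.8 to 96.4 TPM on HFD. Its estimate was −0.23 ± 0.14 over both genotypes (adjusted p = 0.256), and it was called lower once knockout LFD mouse 9 and control LFD mouse 1 were left out (adjusted p = 0.044). Atf4, the main effector downstream of eIF2α, was at 24.1 to 71.2 TPM on LFD and 41.6 to 82.4 TPM on HFD (0.35 ± 0.16, adjusted p = 0.136). Ddit3 (CHOP, a factor linked to cell death under lasting stress) was at 5.64 to 11.3 TPM and 6.39 to 17.3 TPM (0.33 ± 0.16, adjusted p = 0.167). The diets overlapped in each of these genes in both genotypes. Single mice decided these calls: Atf4 was called higher without control LFD mouse 4 (adjusted p = 0.0347), Ddit3 higher without knockout HFD mouse 18 (adjusted p = 0.0821) and Xbp1 lower without knockout LFD mouse 9 (adjusted p = 0.084).

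Trib3, a pseudokinase that is a target of ATF4 and CHOP, was the lowest of the 10 genes. It was at 0.817, 0.731, 0.587, 1.02 and 0.941 TPM in control LFD mice and 2.32, 1.96, 3.61, 2.12 and 0.944 TPM in control HFD mice. In knockout mice it was at 0.618, 0.864, 0.782, 0.158 and 0.308 TPM on LFD and 1.19, 1.70, 1.19, 0.688 and 2.09 TPM on HFD. In each genotype 4 of 5 HFD mice lay above all LFD mice, and the call depended on how transcript length was handled. On counts the estimate was 0.60 ± 0.31 and not called (adjusted p = 0.194), with offsets for the mean transcript length in each mouse it was 1.22 (adjusted p = 0.0064), and limma on log2(TPM + 1) also called it (adjusted p = 0.0016).

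**Figure D2:**
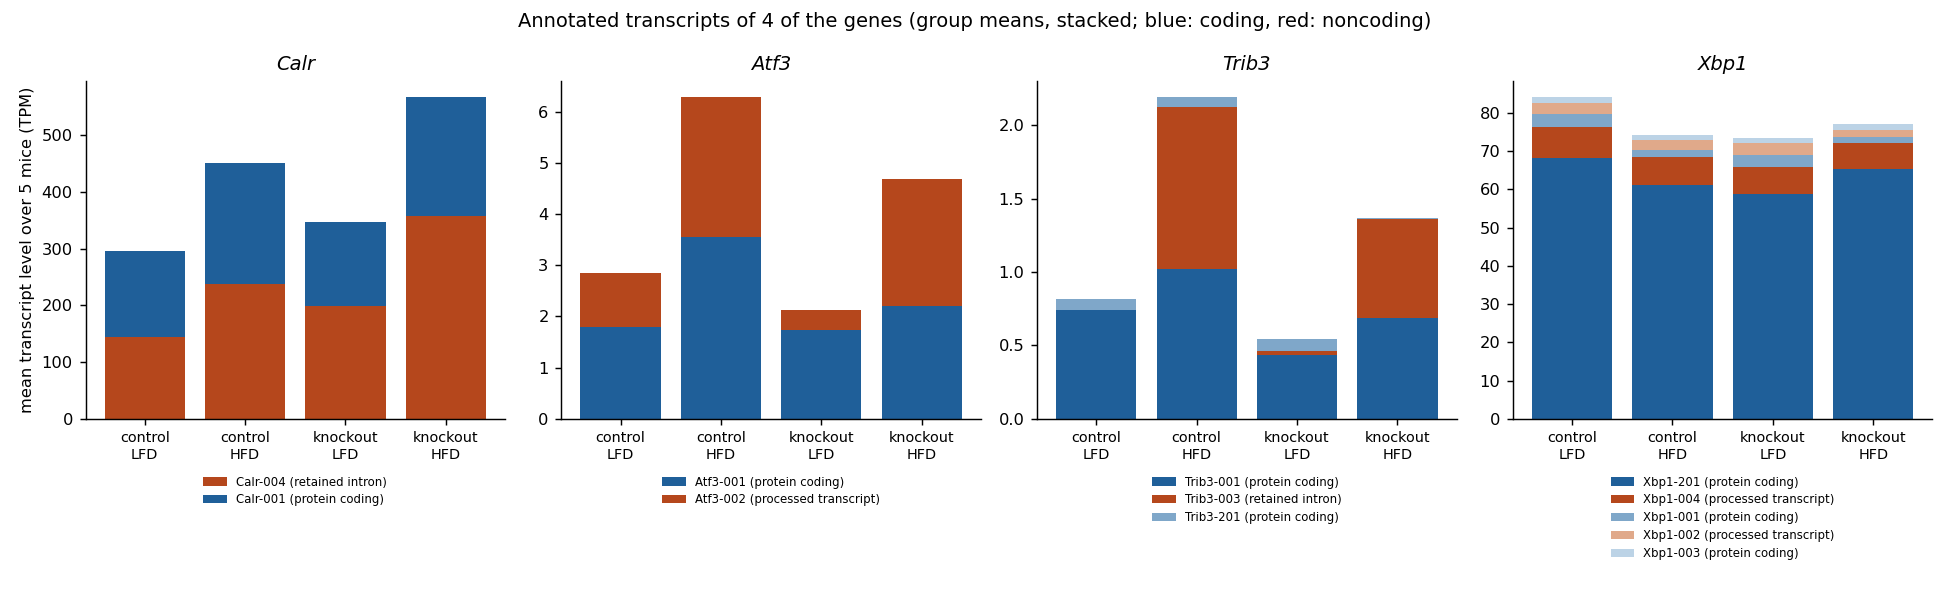
Mean level in TPM (vertical axes, from 0) of the annotated transcripts of Calr, Atf3, Trib3 and Xbp1, stacked by transcript for the 4 groups on the horizontal axes (n = 5 mice each). Blue parts are protein-coding and red parts noncoding. The noncoding part is visible in the HFD groups of Trib3 and absent in control LFD mice.

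The transcripts behind these sums differed. In Trib3, the retained-intron transcript Trib3-003 was listed at 0 in all 5 control LFD mice and at 0.601 to 1.67 TPM in control HFD mice, and at 0 to 0.156 and 0 to 1.58 TPM in knockout LFD and HFD mice. The summed coding transcripts of Trib3 averaged 0.819 TPM on LFD and 1.09 TPM on HFD in control mice, and 0.515 and 0.694 TPM in knockout mice. In Calr, the retained-intron transcript Calr-004 held a mean of 45.7 to 60.04% of the gene's TPM in the 4 groups, and the coding part was 123 to 188 TPM on LFD and 166 to 292 TPM on HFD, with overlap. In Atf3, the coding transcript was at 1.30 to 2.45 TPM in control LFD and 2.55 to 4.72 TPM in control HFD mice, without overlap, and at 0.70 to 2.96 and 0.038 to 3.80 TPM in knockout mice. The noncoding transcript Atf3-002 held 41.8% of the gene's TPM over all mice. Its mean rose from 1.06 TPM on LFD to 2.73 TPM on HFD in control mice, beside 1.79 and 3.55 TPM for the coding transcript. In knockout mice it rose from 0.384 to 2.48 TPM, beside 1.74 and 2.20 TPM for the coding transcript. How well reads can be shared among such overlapping transcripts was not tested.

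The step at which IRE1 acts on Xbp1 can be shown in its sequence. The stretch below is from the mm9 genome, chr11:5424265-5424330 on the + strand. The capitals mark the 26 bases (chr11:5424285-5424310) that are present in the transcript Xbp1-001 and missing from Xbp1-201, the loss of which shifts the reading frame to that of active XBP1.
Xbp1: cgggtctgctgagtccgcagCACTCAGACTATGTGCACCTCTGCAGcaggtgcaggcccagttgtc

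Xbp1-201, without the segment, was given a mean of 58.9 to 68.2 TPM in the 4 groups, or 80.9 to 84.5% of the gene, and Xbp1-001 a mean of 1.65 to 3.32 TPM. The annotated starts of both transcripts lie 308 bases apart, so reads outside the segment also set this split, and it is not a measure of splicing.

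The promoters of the genes were read for motifs known from the response, since the ER chaperones among them are textbook targets of ATF6. RefSeq promoters of build GRCm38.p6 were used for letters only, 250 bases before each start on both strands, and all 10 genes had an entry among 32851 promoters. The ER stress response element (ERSE) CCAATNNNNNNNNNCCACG was found in 37 promoters (0.113%), among them those of Hspa5, Hsp90b1 and Calr. The related element ERSE-II was found in 10 promoters (0.0304%), of which Herpud1 was 1, and the composite C/EBP and ATF site TTGCATCA in 260 (0.791%), among them Herpud1 and Atf3. The XBP1 and ATF6 site TGACGTGG, present in 185 promoters (0.563%), and the cAMP response element TGACGTCA, in 508 (1.55%), were in none of the 10. The stretches that hold the matches are printed 5′ to 3′ along the gene, with the matches in capitals, so that the called genes Hspa5, Calr and Atf3 can be set beside the uncalled Hsp90b1 and Herpud1.
Hspa5, chr2:34771970-34772070 (+): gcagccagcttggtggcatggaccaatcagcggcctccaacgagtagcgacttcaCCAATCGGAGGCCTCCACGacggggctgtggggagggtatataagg
Calr, chr8:84847031-84847111 (−): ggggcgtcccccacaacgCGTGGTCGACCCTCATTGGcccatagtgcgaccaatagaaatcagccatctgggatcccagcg
Hsp90b1, chr10:86705524-86705664 (−): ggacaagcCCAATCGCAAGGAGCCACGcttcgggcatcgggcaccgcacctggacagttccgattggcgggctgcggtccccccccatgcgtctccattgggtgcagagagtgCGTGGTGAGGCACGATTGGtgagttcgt
Herpud1, chr8:94386304-94386404 (+): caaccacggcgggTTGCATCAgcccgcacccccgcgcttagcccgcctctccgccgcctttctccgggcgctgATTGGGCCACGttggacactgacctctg
Atf3, chr1:191183393-191183473 (−): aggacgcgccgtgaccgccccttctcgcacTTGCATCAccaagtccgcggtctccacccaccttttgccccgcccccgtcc

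Hsp90b1 holds 2 matches of the ER stress response element, at 212 to 194 bases and, on the other strand, at 107 to 89 bases before its start, and Hspa5 and Calr hold 1 each, at 65 to 47 and at 162 to 144 bases before theirs. Genes with this element were therefore found both among those called with diet and among those not called. Only matches to every fixed letter were counted, so near matches are left out of these numbers. A match of letters is a description of the sequence, and binding was not measured.

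**Figure D3:**
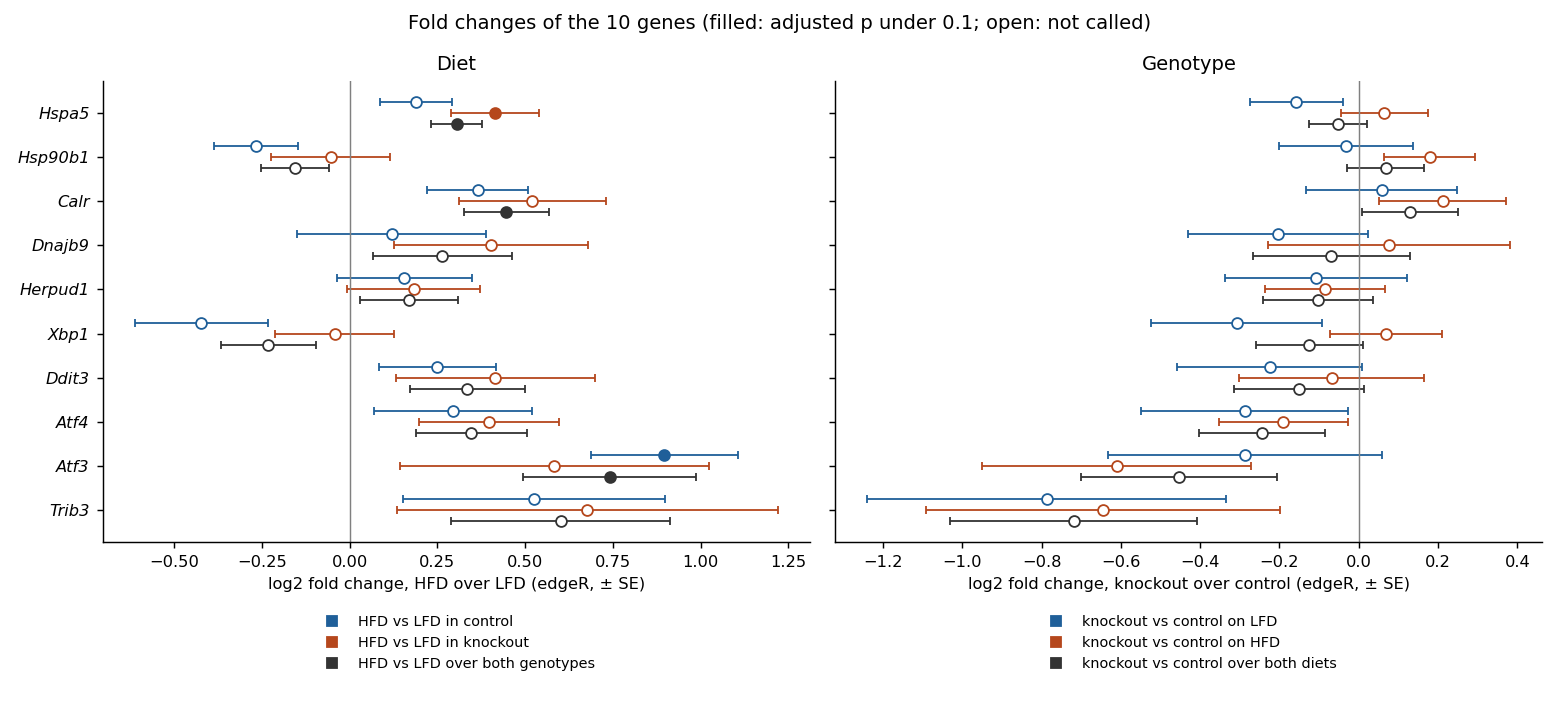
Log2 fold change ± SE (horizontal axes) of the 10 genes (vertical axis) between diets on the left and between genotypes on the right, from edgeR on TMM-scaled counts. Filled points have an adjusted p under 0.1. Hspa5, Calr and Atf3 are filled for diet over both genotypes, and no point is filled for genotype.

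Between the genotypes, none of the 10 genes was called on LFD, on HFD or over both diets by edgeR, DESeq2 or limma. At an unadjusted p under 0.05 the numbers were 0, 0 and 1, beside 803 of 15717, 709 of 15228 and 1159 of 15574 over all genes. Few genes of the whole table were called either: 0.00636% on LFD, 0.00657% on HFD and 0.0385% over both diets. The largest estimate over both diets was that of Trib3 (−0.72 ± 0.31, adjusted p = 0.623), followed by Atf3 (−0.45 ± 0.25, adjusted p = 0.709) and Atf4 (−0.24 ± 0.16, adjusted p = 0.735). Trib3 had a mean of 0.546 ± 0.304 TPM in knockout and 0.819 ± 0.170 TPM in control LFD mice, and 1.37 ± 0.537 and 2.19 ± 0.956 TPM on HFD (± SD, n = 5), with overlap on either diet. In all, 2 of the 10 estimates over both diets were above 0, those of Hsp90b1 and Calr, and the median was −0.11 beside −0.01 for all genes. Exact permutation tests of the genotypes within each diet gave no p under 0.135.

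Whether the genotype changed the response to diet was tested as an interaction. It was called for none of the 10 genes by edgeR, DESeq2 or limma, with 0 at an unadjusted p under 0.05 and adjusted p-values of 0.9999. In the whole table edgeR called 0% of the genes (560 at an unadjusted p under 0.05), limma 0 and DESeq2 14. The largest interaction among the 10 was that of Xbp1 (0.36 ± 0.27). The standard errors of the 10 interactions ran from 0.14 (Hspa5) to 0.64 (Trib3), beside diet estimates over both genotypes of 0.30 and 0.60 for these genes. Interactions as large as the diet estimates could therefore also have been missed with these mice.

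**Figure D4:**
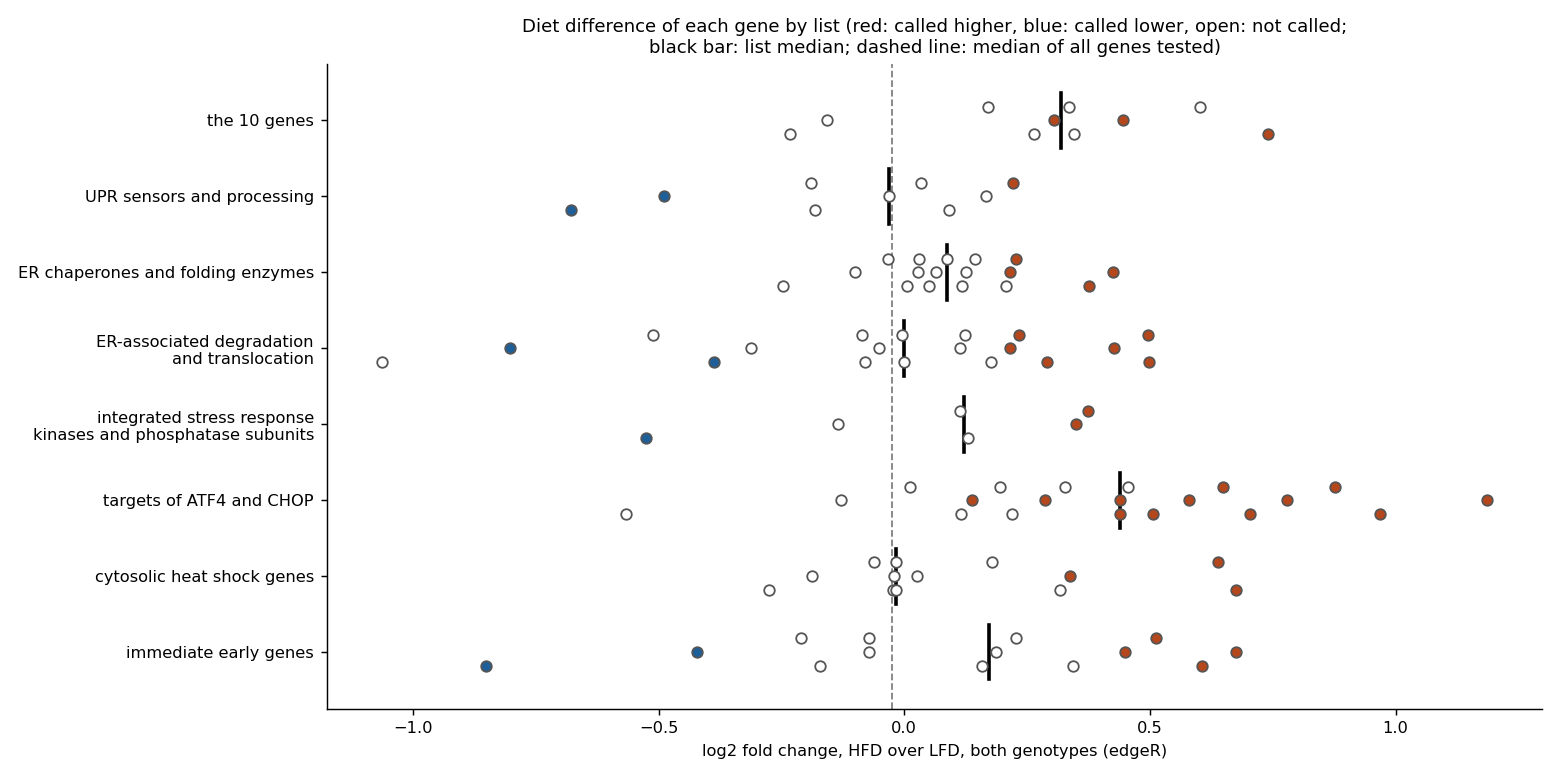
Log2 fold change of HFD over LFD in both genotypes (horizontal axis, edgeR) of each gene, by list (vertical axis). Red points were called higher, blue points lower and open points neither; black bars are list medians and the dashed line is the median of all genes (−0.03). The targets of ATF4 and CHOP have 12 red and no blue points.

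The surrounding pathway was described with lists of known genes, which were written with earlier results of these data known. In the diet comparison over both genotypes, 32 of the 98 further genes tested were called higher and 7 lower. The targets of ATF4 and CHOP, which serve amino acid supply and stress signalling, held 12 of 20 genes called higher and none lower, where 12.5% and 12.7% of all genes were called, with a median log2 fold change of 0.44 and 18 of 20 estimates above 0. Without the 4 libraries high in muscle markers 9 of these 20 were called. The 3 targets with the smallest p were Nupr1, a small stress-induced nuclear protein (0.88, adjusted p = 2.5e-05), the lipoprotein receptor Vldlr (0.70) and the serine synthesis enzyme Psat1 (0.78). The transcription factor Atf5, among the leading calls in knockout mice, was also called over both genotypes (0.51). Nupr1 was at 26.5, 45.7 and 63.2 TPM on LFD and at 62.3, 83.7 and 135 TPM on HFD (lowest, median and highest of 10 mice), so the diets met at knockout LFD mouse 7 and knockout HFD mouse 20 only. Psat1 was at 27.7, 43.9 and 72.3 TPM on LFD and 54.8, 92.8 and 119 TPM on HFD, with overlap. The others called, named after their values were seen, were Ddit4, Sesn2, Phgdh, Stc2, Slc3a2, Aars, Asns and Cebpg. Beside them, Atf4, Ddit3 and Trib3 themselves were not called.

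The targets were also tested in each genotype, whose diet comparisons share no mice. As the list was written with earlier results of these data known, neither genotype is an independent check of it. In control mice 5 of 21 were called higher and none lower (4.42% and 4.9% of all genes), with a median of 0.43 beside −0.04 for all genes. In knockout mice 8 of 20 were called higher (4.55% of all genes), with a median of 0.46 beside 0.00, and Slc7a11 (the cystine transporter) was called lower by 1.25 on the log2 scale (adjusted p = 0.0166). Without the libraries high in muscle markers, the pathway genes called with diet over all lists fell from 23 to 3 in knockout mice, where 3 libraries were left out, and from 15 to 8 in control mice, where 1 was. Calls over all genes fell as well, from 1476 to 427 in knockout and from 1427 to 868 in control mice. Of 20 targets tested over both genotypes, 16 had estimates above 0 in both genotypes. Between the genotypes none of the targets was called by edgeR, with a median over both diets of −0.25 and 4 of 20 estimates above 0. Nupr1 had the smallest p there (−0.39, adjusted p = 0.435). In the other lists, where 0 genes were called between the genotypes over both diets, the smallest p was that of Atf6 (−0.11), Ppib (0.32), Os9 (−0.18), Ppp1r15a (−0.30), Hsph1 (0.27) and Dusp1 (−0.40). Over all lists, 9 of 98 genes had an unadjusted p under 0.05, beside 1159 of all 15574 genes tested, and DESeq2 and limma called 0. Estimates of cell type markers also differed between the genotypes without a call. The 10 white adipocyte markers had a median of −0.28 over both diets with 0 estimates above 0. The 12 muscle fibre markers had a median of 2.02 over both diets, with 0 at an unadjusted p under 0.05, and their direction differed between the diets. On HFD their median was 5.24, all 12 at an unadjusted p under 0.05, and on LFD it was −0.89 with 0 estimates above 0. The part of both marker sets in the estimates of the targets and of the 10 genes was not tested.

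The 3 lists of genes nearer to the ER held 11 of 45 genes called higher with HFD (24.4%) and 4 called lower (8.89%), beside 12.5% and 12.7% of all genes. Of 9 sensors and processing enzymes, Ern1 (IRE1 itself) fell by 0.68 (adjusted p = 0.000133) and the ER-anchored factor Creb3l2 by 0.49, and Eif2ak3 (PERK) rose by 0.22. Ern1 was at 5.01, 6.499 and 8.53 TPM on LFD and at 2.89, 4.24 and 5.97 TPM on HFD (lowest, median, highest). Of 17 chaperones and folding enzymes beyond the 10 genes, P4hb, Sil1, Dnajb11 and Dnajc3 were called higher, by 0.22 to 0.42, and none lower, with a median of 0.09. Of 19 genes of ER-associated degradation and translocation, 6 were called higher, led by the lectin Os9 (0.43), and 2 lower, the ubiquitin ligase Syvn1 (−0.80) and Herpud2 (−0.39), with a median of 0.00.

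The 6 kinases and phosphatase subunits of the integrated stress response had a median of 0.12. Eif2s1, which encodes eIF2α, was called higher (0.37), as was the haem-regulated kinase Eif2ak1 (0.35), and Ppp1r15b, the constitutive subunit of the eIF2α phosphatase, lower (−0.52, adjusted p = 6.1e-05). Ppp1r15b was at 22.9, 27.6 and 34.1 TPM on LFD and at 17.7, 21.5 and 24.96 TPM on HFD. Among 13 cytosolic heat shock genes 3 were called higher, Hspb1 (0.64), Cryab (0.67) and Hspa8 (0.34), with a median of −0.02. Among 14 immediate early genes, which answer growth signals and the handling of tissue, 4 were called higher, Dusp1, Klf6, Jun and Fos, and 2 lower, Myc (−0.85) and Egr1, with a median of 0.17. Atf3 belongs to this class as well as to the stress response.

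Some markers of cell types were called with diet beside these genes. Of all genes, 12.5% were called higher and 12.7% lower over both genotypes. In control mice alone 4.9% were called lower, and in knockout mice alone 4.85%. The summed white adipocyte markers were at 15413 to 23479 TPM on LFD and 20515 to 32262 TPM on HFD, with 4 of 10 called higher. Endothelial markers were at 128 to 223 and 204 to 329 TPM, with 4 of 7 called higher. Of 8 macrophage markers 2 were called higher, Cd68 and Trem2, and of 7 brown and beige fat markers 2 were called lower. Of these 7, 4 were called lower in control mice alone and 0 in knockout mice alone. Muscle fibre markers were at 7.67 to 57.0 TPM in control HFD and 10.5 to 3567 TPM in control LFD mice, with 9 of 12 called lower with HFD in control and 0 in knockout mice. None of 11 B and plasma cell markers (14.1 to 251 TPM on LFD, 32.5 to 243 TPM on HFD) or of 9 T cell markers was called over both genotypes. In knockout mice alone 1 T cell marker, Cd3e, was called lower with HFD. Of 9 markers of fat progenitors and fibroblasts, Cd34 and Pi16 were called higher and Col1a1 and Pdgfra lower over both genotypes. Of 10 epithelial markers, Expi and Elf5 were called lower. The part of these cells in the levels of the 10 genes was not tested, and in bulk tissue fewer cells of a type and less RNA per cell cannot be told apart.

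The 10 genes also differed in how much they varied between mice of 1 group. The mean within-group coefficient of variation of TPM was 8.5% for Hspa5 and 11.3% for Hsp90b1, 20.5 to 29.7% for Xbp1, Dnajb9, Herpud1, Calr, Ddit3 and Atf4, and 39.8 and 40.3% for the low genes Trib3 and Atf3.

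**Figure D5:**
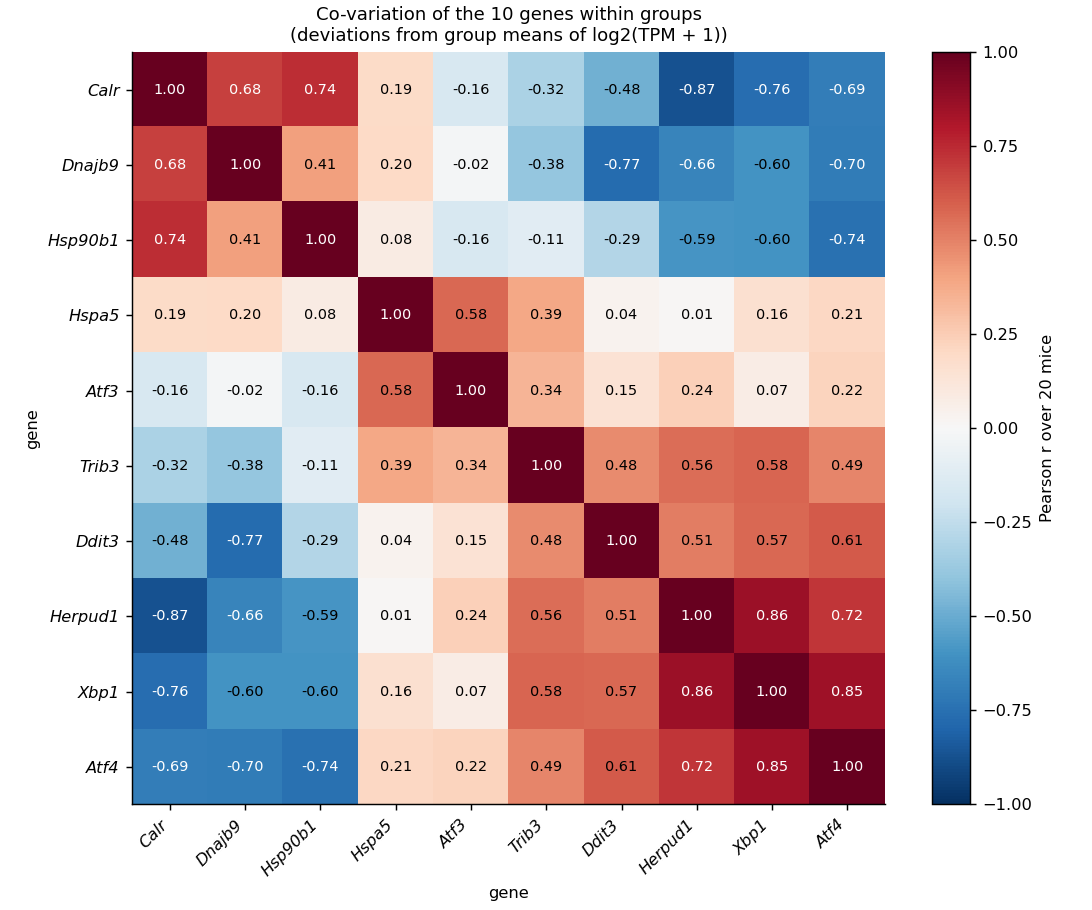
Pearson correlation over 20 mice between the deviations of each pair of the 10 genes from their group means of log2(TPM + 1), with genes on both axes and the colour scale from −1 to 1. Calr, Dnajb9 and Hsp90b1 form a block opposed to Xbp1, Herpud1, Atf4 and Ddit3, and Hspa5 and Atf3 stand outside both.

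Within groups, the genes varied in opposed sets. With each mouse taken as its deviation from the group mean, 20 of the 45 pairs were correlated at an adjusted p under 0.05 by permutation within groups, 10 positively and 10 negatively. All 20 kept their sign once the 2 mice farthest out were left out. The share of such pairs over all genes was not measured, so a division particular to these genes was not shown. Herpud1 and Xbp1 rose and fell together (r = 0.86, rho = 0.75, adjusted permutation p = 0.0009 and 0.00911, r = 0.77 without 2 mice), as did Xbp1 and Atf4 (r = 0.85, rho = 0.86, adjusted permutation p = 0.0012 and 0.00225, r = 0.78 without 2 mice). Calr went with Hsp90b1 (r = 0.74, rho = 0.79, adjusted permutation p = 0.0106 and 0.0111, r = 0.67 without 2 mice) and against Herpud1 (r = −0.87, rho = −0.75, adjusted permutation p = 0.0009 and 0.0104, r = −0.77 without 2 mice). Thus the gene sums of Calr and Herpud1, both induced by ER stress in textbooks and both with an element of that response in their promoters, varied in opposite directions within groups. The coding transcript held 21.4 to 75.7% of the Calr sum in single mice. In knockout LFD mouse 9 and control LFD mouse 1, the highest sums of their groups, it held 22.5 and 31.8%. Its level there was the lowest of each group, at 127 and 123 TPM. Whether the coding transcript alone varied with the other genes was not tested.

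The same division was seen against the first component of all genes. Atf4 (r = 0.94), Xbp1 (0.90), Herpud1 (0.85) and Ddit3 (0.66) were at its one side and Calr (−0.86), Dnajb9 (−0.81) and Hsp90b1 (−0.75) at the other, with adjusted permutation p-values from 6.67e-05 to 0.00686 over 20 mice. Spearman's rho for these 7 genes had the same signs, 0.94, 0.87, 0.78, 0.71, −0.83, −0.81 and −0.76, with adjusted permutation p-values from 1e-04 to 0.00323. Without the 2 mice farthest out, r was 0.90, 0.85, 0.79, 0.71, −0.79, −0.84 and −0.66. Hspa5 (r = −0.01, rho = −0.08) and Atf3 (r = 0.10, rho = 0.10) lay near 0 (adjusted permutation p = 0.968 and 0.808 for r). The pairs above therefore share a pattern that runs through the whole table, and the share of all genes tied to it was not measured. A trait of the libraries ran along it too, the share of counts in transcripts not matched to a gene. That share was 0.569, 0.533 and 0.581% in knockout LFD mouse 9, control LFD mouse 1 and knockout HFD mouse 18, the lowest on the component. It was 0.428, 0.377 and 0.417% in knockout LFD mouse 7, control LFD mouse 4 and control HFD mouse 11, the highest. The source of the pattern was not tested.

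For 5 of the 10 genes, the genes whose log2(TPM + 1) was most like theirs over the 20 mice, among 15574, are given by Pearson's r as a description. The mice fall into diet and genotype groups, which these values do not take out. For Hspa5 they were Anapc16 (0.94), Ddah1, Cyb5r3, Prune and Col28a1 (each 0.92). For Herpud1 they included Slc35b1, Abhd16a, Lonp1 and Rcl1 (each 0.91). For Ddit3 they included Gsn (0.92), Unc5b (0.92), Anxa11 (0.92) and Pacsin2 (0.91). For Atf3 they were Gm14444 (0.92), Iscu (0.91), 2900073G15Rik (0.89), 2810032G03Rik (0.89) and Zwint (0.89). For Trib3 they were Hnrnpk (0.92), Cwc15, Ddb1, Yipf3 (each 0.91) and Spsb1 (0.90). None of them belongs to the pathway or marker lists.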

How the data were processed

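RNA was extracted from iWAT with a lipid tissue kit and sequenced as stranded total RNA libraries from 20 mice, which were grouped by the labelled genotype and diet. The authors quantified the reads with Salmon 0.13.1 against Ensembl transcripts of the NCBIM37 (mm9) mouse build; STAR 2.5.3 is also named in the submitters' processing notes. The deposited table holds estimated counts and TPM for 96533 transcripts, of which 94334 were matched to 36611 genes. The unmatched transcripts held 0.377 to 0.581% of the counts. How these values were scaled upstream of the deposit beyond Salmon's own steps is not given in the sources used here.

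Estimated counts, as deposited, were summed per gene and rounded, and genes averaging 0.5 TPM or more in the mice compared were tested with edgeR 4.0.16 (R 4.3.3) by the quasi-likelihood test with TMM scaling and Benjamini-Hochberg adjustment over all of them, calling genes at an adjusted p under 0.1. Each pair of groups was fitted alone, and the interaction and the comparisons over both diets or genotypes were fitted on all 20 mice. TPM, as deposited, were summed per gene and give the levels. Single genes were also tested with two-sided exact permutation tests. Correlations used deviations from group means, permuted within groups 100000 times, and 1e-05 is the smallest p they can give. All 5 mice of a group are separate animals.

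DESeq2 1.42.0, its size factors (RLE) in edgeR, no filter, limma 3.58.1 on log2(TPM + 1), transcript length offsets and leaving out each mouse were the alternatives. A newer quasi-likelihood method and leaving out 2 sets of libraries were added after seeing the data. The steps were tested on simulated data. The members and lists were chosen with earlier results of these data known. The pathway genes named are, in each comparison, the called genes with the 8 smallest p, or a list's gene with the smallest p where it had no call, and other called genes were named after their values were seen. Sequences are from the mm9 genome and from RefSeq promoters of GRCm38.p6, and no protein sequences were used here. Of the genes most like Herpud1 and Ddit3 over the mice, some are not reported here.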

Additional observations from a re-analysis of the deposited data

Results flagged for a closer look

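In 1 of the 40 sets of 5 mice tested (10 genes in 4 groups), 1 mouse stood far from the rest of its group. Calr was at 848 TPM in knockout HFD mouse 18, and at 452 to 556 TPM in the other 4 knockout HFD mice, a gap of 0.735 of the whole range, which is past Dixon's limit for 5 samples. Chance alone passes that limit in about 1 of 20 groups. Most of this level was the retained-intron transcript Calr-004, at 662 TPM in mouse 18 and 234 to 374 TPM in the others, while the coding transcript was at 182 TPM, within the 176 to 292 TPM of the others. Calr was called with diet over both genotypes without this mouse as well.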

How the results depend on the processing

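No paired analysis was made because the labels used here name no litter or pair for the mice. Of the 10 genes, the calls of Hspa5 and Calr with diet over both genotypes held under all 8 alternatives and without any 1 mouse, as did that of Atf3 in control mice. No called gene changed direction. Counts of calls that moved by over 1.5 times were as follows. For knockout against control on HFD, 1 gene of the whole table became 100 with DESeq2, 26 without the filter, 3 with limma, 5 with length offsets and 34 with the newer quasi-likelihood method, and 1 to 58 without 1 mouse. On LFD, 1 became 17 with DESeq2 and 2 with limma, and 1 to 2 without 1 mouse. Over both diets, 6 became 32 with DESeq2, 3 with limma, 2 with length offsets and 2 without the libraries high in muscle markers. The interaction went from 0 to 14 genes with DESeq2. For diet in control mice, the 1 of the 10 genes called became 2 with DESeq2, 4 with limma and 2 with length offsets. The 15 pathway genes became 25 with DESeq2, 23 with limma and 8 without the muscle-high libraries (5 to 17 without 1 mouse), and the 1427 of all genes became 2205 with DESeq2 and 868 without those libraries (780 to 1845 without 1 mouse). For diet in knockout mice, the 1 called became 2 with DESeq2, 0 without the filter and 0 without the muscle-high libraries (0 to 1 without 1 mouse). The 23 pathway genes became 11 with limma, 13 with length offsets and 3 without the muscle-high libraries (12 to 19 without 1 mouse), and the 1476 of all genes became 2247 with DESeq2 and 427 without those libraries (753 to 1355 without 1 mouse). For diet over both genotypes, 3 of the 10 genes became 6 with limma, through Atf4, Trib3 and Dnajb9. Leaving libraries out also leaves fewer mice; the cause was not tested otherwise.

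Log2 fold changes of uncalled genes turned sign as follows. On LFD between genotypes, Hsp90b1 was 0.055 with limma, Calr −0.085 without the muscle-high and −0.036 without the first-component libraries, and Herpud1 0.0044 without the muscle-high libraries. For diet in knockout mice, Hsp90b1 was 0.023 with limma and 0.049 without the first-component libraries, Herpud1 −0.021 without the muscle-high libraries and Xbp1 0.087 with limma. In the interaction, Herpud1 was −0.068 with limma, −0.032 with length offsets, −0.18 and −0.043 without the muscle-high and first-component libraries, Atf4 −0.065 with limma and −0.023 without the muscle-high libraries, Atf3 0.094 with length offsets, and Trib3 −0.15, −0.24 and −0.11 with limma and without each set of libraries. Over both diets Hsp90b1 was −0.0051 without the muscle-high and Dnajb9 0.0041 without the first-component libraries, and over both genotypes Hsp90b1 was 0.0012 with limma. Without 1 mouse, the ranges that crossed 0 were, for genotype on HFD, Dnajb9 −0.12 to 0.24, Xbp1 −0.0076 to 0.15 and Ddit3 −0.19 to 0.058. On LFD they were Hsp90b1 −0.13 to 0.050, Calr −0.075 to 0.17 and Herpud1 −0.25 to 0.050. For diet they were Dnajb9 −0.049 to 0.30 in control mice, and Hsp90b1 −0.14 to 0.049 and Xbp1 −0.17 to 0.041 in knockout mice. In the interaction they were Herpud1 −0.15 to 0.13, Atf4 −0.14 to 0.24 and Trib3 −0.10 to 0.40, and over both diets Dnajb9 −0.16 to 0.013. The other 513 values under other settings and 946 without 1 mouse kept their direction and side of the threshold. Each library held 54605101 or more counts, and what limited the calls of the 10 genes was not tested.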
